A study of Homo sapiens with 8 samples.

Results

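The genes described here are the subunits and inhibitors of NF-κB, chosen by symbol as NFKB1, NFKB2, REL, RELA, RELB, NFKBIA, NFKBIB, NFKBIE, NFKBIZ and TNFAIP3. All 10 are among the 16525 genes of the deposited table and had at least 164 reads in each library, so none depended on a filter on low values. The RNA came from EndoC-βH5, an established human beta-cell line of fetal pancreatic origin from which the immortalizing SV40 large T-antigen and hTERT transgenes have been removed. 4 libraries were from untreated control cells and 4 from cells given IL-1β, IFNγ and TNFα together, all taken at 48 h and all of the same line. The labels name replicates but not separate cultures, so the p-values measure the spread between these libraries, which may be technical.

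NF-κB is a dimer of Rel-family proteins. RELA (p65), RELB and REL carry activation domains, while NFKB1 and NFKB2 encode the precursors p105 and p100, which are processed to p50 and p52. In resting cells inhibitory κB (IκB) proteins, encoded by NFKBIA (IκBα), NFKBIB (IκBβ) and NFKBIE (IκBε), hold the dimers in the cytoplasm, and p100 holds RELB. IL-1β and TNFα activate the IκB kinase, which marks the IκBs for degradation, and the released dimers drive genes that include several of their own inhibitors. NFKBIZ encodes a nuclear IκB-like protein that cooperates with p50 at a subset of promoters, and TNFAIP3 (A20) is a ubiquitin-editing enzyme that shuts the pathway down. In beta cells the combination of IFNγ with IL-1β and TNFα is widely used as a model of islet inflammation.

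The promoters of these genes are shown because several of the genes are known targets of the factor they form. Sequences are those of RefSeq on GRCh38.p14, and 8 of the 10 genes (all but RELB and NFKBIE) had an entry, with 14 windows of 250 bases before an annotated start. The NF-κB consensus was searched on both strands. It was found in 7 of the 8 genes and in 9 of the 14 windows, against 5.21% of all 35116 windows of the same length. RELA was the exception. The stretches of 30 bases around each match are given 5′ to 3′ on the strand of the gene, with the matching bases in capitals and overlapping matches joined.
NFKB1, chr4:102501300-102501329, plus strand: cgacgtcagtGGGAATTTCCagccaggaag
NFKB2, chr10:102394462-102394491, plus strand: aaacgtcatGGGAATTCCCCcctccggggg
NFKB2, chr10:102394490-102394519, plus strand: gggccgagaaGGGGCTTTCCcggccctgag
NFKB2, chr10:102395519-102395548, plus strand: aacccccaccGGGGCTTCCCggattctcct
NFKB2, chr10:102395674-102395703, plus strand: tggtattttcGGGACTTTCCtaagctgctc
REL, chr2:60881518-60881547, plus strand: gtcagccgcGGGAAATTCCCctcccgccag
NFKBIA, chr14:35404811-35404840, minus strand: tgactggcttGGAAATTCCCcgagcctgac
NFKBIB, chr19:38899932-38899961, plus strand: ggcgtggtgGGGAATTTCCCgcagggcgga
NFKBIZ, chr3:101827757-101827786, plus strand: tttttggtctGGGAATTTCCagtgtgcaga
NFKBIZ, chr3:101849265-101849294, plus strand: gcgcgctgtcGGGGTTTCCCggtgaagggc
TNFAIP3, chr6:137867188-137867217, plus strand: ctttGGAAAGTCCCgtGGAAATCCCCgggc

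NFKB2 held the most matches, in 2 of its 3 windows, and TNFAIP3 held a pair separated by a short spacer. In NFKBIA the match lay 72 to 81 bases before the start. The whole window of NFKBIA, whose response differed most between libraries together with that of NFKB2, was as follows.
NFKBIA, chr14:35404750-35404999, minus strand: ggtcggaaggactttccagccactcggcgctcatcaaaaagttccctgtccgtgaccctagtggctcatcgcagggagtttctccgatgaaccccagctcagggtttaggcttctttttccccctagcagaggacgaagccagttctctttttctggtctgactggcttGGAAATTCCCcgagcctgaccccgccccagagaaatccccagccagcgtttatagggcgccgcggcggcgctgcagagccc

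The table holds CPM, the reads of a gene scaled to a common library total. In these libraries 1 read was worth 0.0196 to 0.0214 CPM, which implies library totals of 46767972 to 51145634 reads. Listed genes held 36577438 to 40117636 reads per library, so part of each total lay outside the listed genes. Column names give no replicate number, so libraries are called A to D by the shared first part of the names. This first part, which stands before the condition in the name, ends alike for A and B and alike for C and D. It is this end of the first part that is called the column-name ending below. What that ending stands for is not given, and the libraries of each condition split along it, so results are also given within A and B and within C and D. All 8 beta-cell markers checked were listed, with insulin (INS) at 1158 to 2905 CPM in control cells, while 1 of 7 immune markers (CD14) and none of 4 endothelial markers were. Differences were tested with limma on log2(CPM + 0.1) over all genes, and the calling limits were a log2 difference of more than 0.5 in either direction and an adjusted p below 0.05. By this rule 1574 of the 16525 genes (9.52%) were called higher with cytokines and 2896 (17.5%) lower. With TMM scaling these numbers were 2154 and 1933, and the median change over all genes moved from -0.17 to -0.02. In bulk RNA, fewer cells of a type and less RNA per cell cannot be told apart.

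To study the response of the pathway's own components, the 10 genes were compared between conditions. 6 of the 10 were called higher, namely NFKBIZ, RELB, NFKBIB, REL, TNFAIP3 and RELA, beside 9.52% of all genes. None was called lower, beside 17.5% of all genes, and 4 were not called. At an unadjusted p below 0.05, limma gave 7 higher and 0 lower, with no share of all genes at that limit to set beside it. edgeR with TMM called 7 higher and 0 lower, beside 4067 of the 16525 genes called in either direction. DESeq2 called 8 higher and 0 lower, beside 4503 called in either direction. The median log2 fold change of the 10 was 0.65, beside -0.17 over all genes. In 5 of them (REL, RELA, RELB, NFKBIB and NFKBIZ) all cytokine libraries lay above all controls, against 10.8% of all genes in the upward direction. That arrangement fixes the 2-sided exact permutation p at 0.0286, the smallest that 4 against 4 libraries allow, so this p adds nothing to it.

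**Figure D1:**
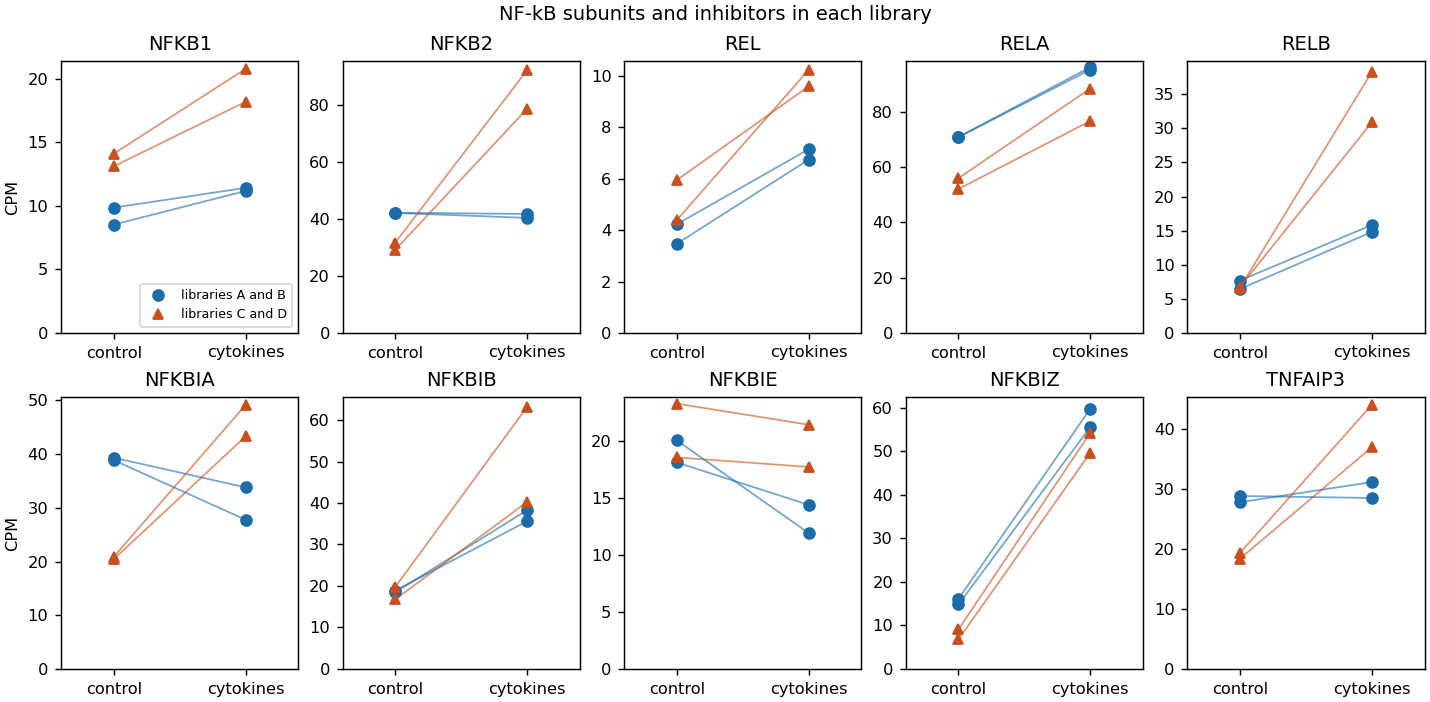
CPM (linear axes from 0) of the 10 genes in control and cytokine-treated cells, 1 point per library, with lines joining libraries that share the first part of the column name. Circles are libraries A and B and triangles C and D. NFKB2 and NFKBIA rose with cytokines in C and D, while in A and B NFKB2 went from 42.2 to 41.1 CPM and NFKBIA from 39.1 to 30.8 CPM on average.

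Among the Rel proteins with an activation domain, RELB had the largest change. RELB (ENSG00000104856, chr19:45001430-45038198, GRCh38, plus strand) was at 7.68, 6.43, 6.63 and 6.75 CPM in control libraries A to D. With cytokines it was at 15.8, 14.8, 38.3 and 30.9 CPM in the same order. The 4 controls lay close together, every cytokine library was above them, and C and D were the highest. The mean went from 6.87 ± 0.55 to 24.9 ± 11.5 CPM (SD, n = 4), which is a log2 rise of 1.73 (SE 0.28, limma adjusted p = 0.00105).

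RELA (ENSG00000173039, chr11:65653596-65663094, minus strand), the main partner of p50, was at 71.0, 70.9, 56.0 and 52.1 CPM in control libraries A to D. After cytokine exposure it was at 96.3, 95.4, 88.5 and 76.8 CPM. A and B were above C and D in both conditions, and the groups did not overlap. RELA rose by 0.52 on the log2 scale (SE 0.14, limma adjusted p = 0.0157), just past the limit of 0.5. It fell to between 0.44 and 0.49 and the call was lost when control library C or D, or cytokine library A or B, was left out.

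REL (ENSG00000162924, chr2:60881521-60931610, plus strand), the c-Rel subunit best known from lymphocytes, was the least abundant. Control libraries A to D had 4.23, 3.47, 5.95 and 4.40 CPM, and cytokine libraries 7.15, 6.75, 9.60 and 10.2 CPM. The lowest cytokine library exceeded the highest control, a log2 rise of 0.89 (SE 0.21, limma adjusted p = 0.00889). In the GENCODE 29 annotation 5702 of the 13170 exon bases of REL are shared with AC010733.2 on the same strand, so its count is uncertain to that extent.

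The precursor genes moved less evenly. NFKB2 (ENSG00000077150, chr10:102394110-102402529, plus strand) was at 42.2, 42.2, 31.8 and 29.2 CPM in control libraries A to D and at 40.4, 41.8, 92.4 and 78.8 CPM in cytokine libraries. Cytokine libraries A and B thus lay within the control range, and C and D at more than any control. Over all 8 libraries the log2 difference was 0.72 (SE 0.27) and did not pass (limma adjusted p = 0.0632). It was called with a block for the pairs A to D (adjusted p = 0.00993), with TMM scaling (0.87, adjusted p = 0.036) and by edgeR and DESeq2. It was also called when cytokine library A (0.91) or B (0.89) was left out.

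NFKB1 (ENSG00000109320, chr4:102501329-102617302, plus strand) was at 8.53, 9.86, 14.1 and 13.1 CPM in control libraries A to D and at 11.2, 11.4, 20.8 and 18.2 CPM in cytokine libraries. Each cytokine library was above the control of its own pair, but the groups overlapped because C and D were above A and B in both. NFKB1 differed by 0.41 on the log2 scale (SE 0.24, limma adjusted p = 0.23) and was not called. It stayed below 0.5 with the replicate block, where the adjusted p was 0.00281, and was called by DESeq2 (0.60) and by edgeR with the block (0.57).

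Of the classical inhibitors, NFKBIB was called higher while NFKBIA and NFKBIE were not called. NFKBIB (ENSG00000104825, chr19:38899700-38908893, plus strand) was at 18.5, 18.9, 19.8 and 16.8 CPM in control libraries A to D. It was at 38.3, 35.6, 63.2 and 40.3 CPM with cytokines. The controls were within 3 CPM of each other, all cytokine libraries were above them, and library C stood apart from the other cytokine libraries. NFKBIB rose by 1.22 on the log2 scale (SE 0.18, limma adjusted p = 0.000453), and by 1.04 without cytokine library C. NFKBIB shares 40 exon bases with SIRT2 on the opposite strand.

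NFKBIA (ENSG00000100906, chr14:35401511-35404749, minus strand) was at 39.3, 38.9, 20.9 and 20.5 CPM in control libraries A to D and at 33.8, 27.8, 49.2 and 43.3 CPM in cytokine libraries. Controls A and B lay above cytokine libraries A and B and below C and D, and controls C and D were the lowest of all 8. Its log2 difference was 0.40 (SE 0.26, limma adjusted p = 0.268), and it was not called under any of the 21 alternatives. The mean over all libraries therefore averaged over opposite signs in the A and B and the C and D libraries, which are described further on.

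NFKBIE (ENSG00000146232, chr6:44258166-44265788, minus strand) was at 18.1, 20.0, 23.3 and 18.6 CPM in control libraries A to D. Cytokine libraries had 14.4, 11.9, 21.4 and 17.7 CPM. It was the only one of the 10 genes that was lower with cytokines in every pair, and the groups overlapped. The log2 difference of -0.31 (SE 0.18, limma adjusted p = 0.221) was not called under any alternative.

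NFKBIZ had the largest change of the 10. NFKBIZ (ENSG00000144802, chr3:101827991-101861022, plus strand) was at 16.1, 14.8, 6.79 and 9.07 CPM in control libraries A to D. It reached 59.8, 55.6, 49.7 and 54.3 CPM with cytokines. The cytokine libraries were alike, with a mean of 54.8 ± 4.18 CPM (SD, n = 4), and lay far above every control. The controls split into a higher A and B and a lower C and D, with a mean of 11.7 ± 4.48 CPM. On the log2 scale NFKBIZ rose by 2.30 (SE 0.24, limma adjusted p = 5.43e-05).

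TNFAIP3 (ENSG00000118503, chr6:137867188-137883312, plus strand) was at 28.9, 27.9, 18.4 and 19.4 CPM in control libraries A to D and at 28.6, 31.2, 37.0 and 44.1 CPM in cytokine libraries. Cytokine library A was within the control range, so the groups overlapped, and the exact permutation test gave p = 0.0571. TNFAIP3 rose by 0.58 on the log2 scale (SE 0.19, limma adjusted p = 0.0392). The call was lost with quantile normalization (adjusted p = 0.0527), without the intensity trend (adjusted p = 0.0609) and when control library C or D or cytokine library B, C or D was left out (log2 0.47 to 0.63, adjusted p from 0.0539 to 0.108).

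Levels of different genes were compared per exon length, as TPM (reads divided by exon length and rescaled to the same sum in each library). In control cells the order of the means was NFKBIA (46.5 TPM), RELA (43.2), NFKB2 (30.5), NFKBIB (30.5), NFKBIE (29.9), TNFAIP3 (17.5), RELB (8.66), NFKBIZ (7.31), NFKB1 (7.16) and REL (1.34 TPM). NFKBIA and RELA overlapped in this order, as did NFKB2, NFKBIB and NFKBIE with their neighbours in that group, and RELB, NFKBIZ and NFKB1 with theirs. RELA was above NFKB2, NFKBIE above TNFAIP3, TNFAIP3 above RELB and NFKB1 above REL in all 4 libraries without overlap.

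With cytokines the order of the mean TPM was NFKBIB (80.3), NFKBIA (68.7), RELA (67.3), NFKB2 (60.7), NFKBIZ (38.4), RELB (35.4), TNFAIP3 (29.4), NFKBIE (26.8), NFKB1 (10.5) and REL (2.71). Every pair of neighbours from NFKBIB to NFKBIE overlapped, so that part of the order is not resolved. NFKBIE was above NFKB1, and NFKB1 above REL, in all 4 libraries without overlap. NFKBIZ moved from rank 8 to rank 5 and NFKBIE from rank 5 to rank 8. With the longest transcript as length, RELA ranked first in both conditions, at 59.6 and 90.2 TPM.

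**Figure D2:**
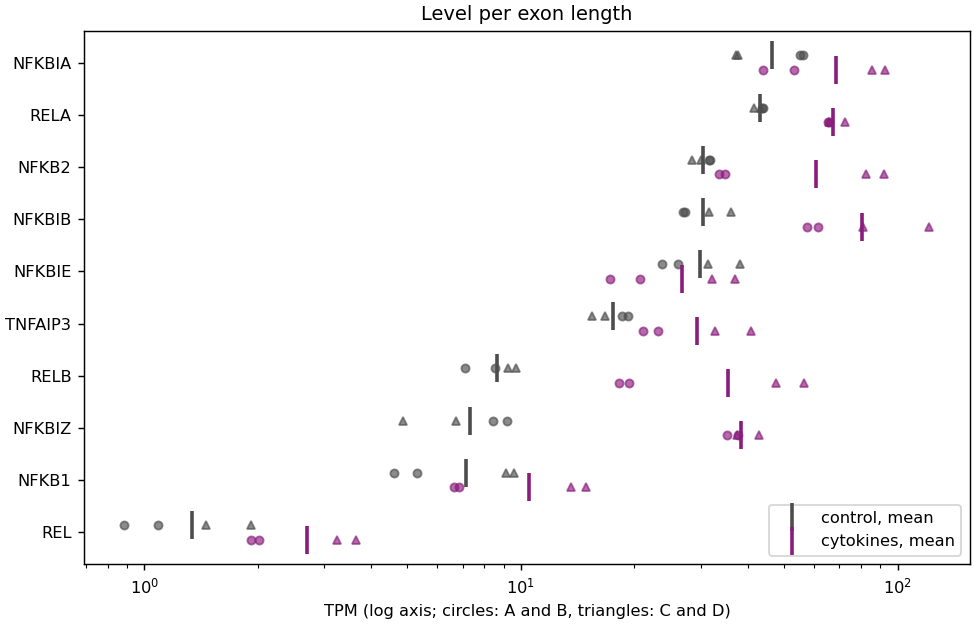
Level of each gene in TPM (log axis), from recovered reads and GENCODE exon length, in control (grey) and cytokine-treated cells (purple). Points are libraries (circles A and B, triangles C and D) and vertical bars the means of 4. NFKBIB went from 30.5 to 80.3 TPM and NFKBIZ from 7.31 to 38.4 TPM, while REL was lowest in both conditions.

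Ratios within a library do not depend on its scaling. The log2 ratio of RELB to RELA reads was between -3.46 and -2.95 in control libraries and between -2.69 and -1.21 with cytokines, so the ranges did not overlap. It was -2.61 and -2.69 in cytokine libraries A and B and -1.21 and -1.31 in C and D. The ratio of NFKB2 to NFKB1 spread from 1.16 to 2.31 over the control libraries, C and D being the lowest, and from 1.85 to 2.15 with cytokines. That of NFKBIA to RELA was -0.85 and -0.87 in controls A and B, and -1.51 and -1.78 with cytokines. In C and D it went the other way, from -1.42 and -1.35 to -0.85 and -0.83.

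The response was next described within each set of libraries, from a fit with the interaction of treatment and column-name ending. This fit counts A and B as independent libraries, although they were far more alike than C and D. The chi-square per gene between A and B was 13.3 in controls and 5.89 with cytokines, and between C and D 66.6 and 84.6. The p-values of this fit may therefore be too small. In A and B, 4 of the 10 genes were called higher and 1 lower, beside 10.8% and 14.1% of all genes. These were NFKBIZ (log2 1.89), RELB (1.11), NFKBIB (0.98) and REL (0.84), and NFKBIE with -0.54 (adjusted p = 0.0357, limma). In C and D, 9 of the 10 were called higher, beside 8.75% of all genes, and NFKBIE alone was not, with -0.09. After TMM scaling 5 were called higher in A and B, with RELA at 0.53, the call of NFKBIE was lost (-0.44, adjusted p = 0.0671), and the same number, 9, was called in C and D. The values of NFKB2 in A and B (-0.04 to 0.06) and of NFKBIE in C and D (-0.09 to 0.11) changed sign with that scaling.

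**Figure D3:**
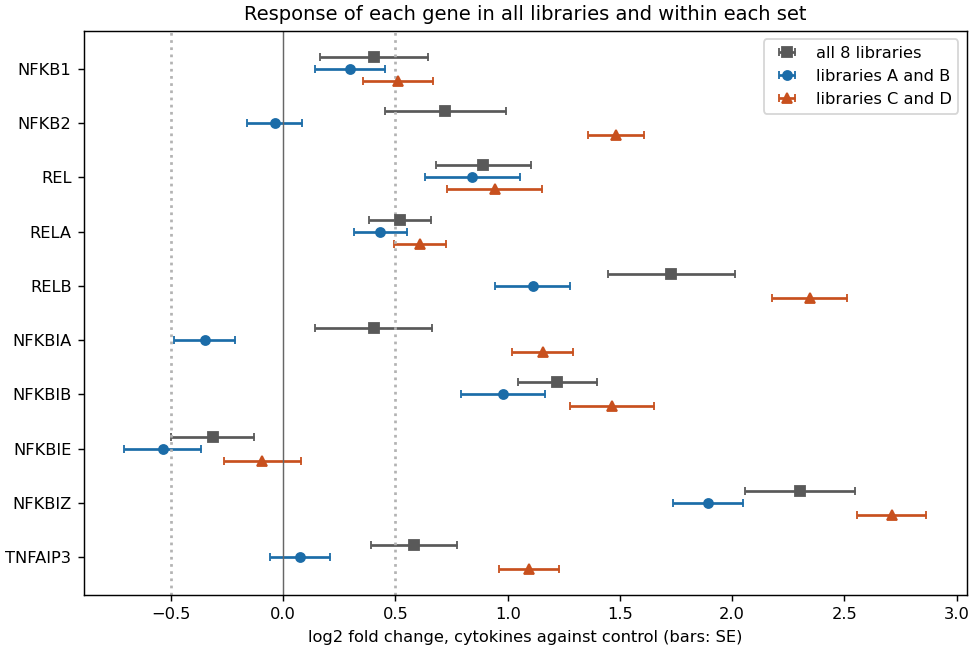
Log2 fold change of cytokine-treated over control cells for each gene, over all 8 libraries (grey squares), in A and B (blue circles) and in C and D (orange triangles). Bars are standard errors of the limma fit and dotted lines mark the limit of 0.5. NFKB2, NFKBIA and TNFAIP3 were at -0.04, -0.35 and 0.07 in A and B and at 1.48, 1.16 and 1.09 in C and D.

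The difference between these responses was itself tested. Over all genes 5 of 16525 (0.0303%) were called for a difference, all with a larger response in C and D, and 2 of the 5 were NFKB2 and NFKBIA. NFKB2 had a log2 response of -0.04 in A and B and of 1.48 in C and D, a difference of 1.52 (SE 0.17, adjusted p = 0.00995, limma). NFKBIA had -0.35 and 1.16, a difference of 1.51 (SE 0.19, adjusted p = 0.0219, limma). Both were also called after TMM scaling (1.62 and 1.61) and by edgeR (1.63 and 1.61). Without 1 of the control or cytokine libraries A or B neither was called, at differences of 1.37 to 1.65 and adjusted p-values from 0.0862 to 0.344. NFKBIA was in addition not called without control C or D (adjusted p = 0.0528 and 0.0537).

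The other 3 genes called for a difference, named after their values were seen, were GBP1, BST2 and CXCL10, which are interferon-response genes. Their differences of 4.10, 4.17 and 4.29, whose size depends on the added 0.1 CPM, came with controls of at most 2.48 CPM in A and B and of at most 0.0587 CPM, or 3 reads, in C and D. NFKB2 and NFKBIA by contrast had at least 1046 reads in every library.

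All 10 genes had a larger log2 response in C and D, beside 31.6% of all genes on the CPM scale and 48.2% after TMM scaling. For REL the difference was 0.10 and turned to -0.04 without control library A and to -0.11 without control library D. With a replicate block for the 4 pairs, 68 genes (0.411%) were called for a difference, and 5 of these were TNFAIP3 (1.02, adjusted p = 0.00022), RELB (1.23, adjusted p = 0.000565), NFKBIZ (0.82, adjusted p = 0.00722), NFKB2 and NFKBIA (limma). Without the block, TNFAIP3, RELB and NFKBIZ were not called (adjusted p = 0.364, 0.367 and 0.999).

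The sets were also compared within each condition. In control cells NFKBIZ (-0.97), NFKBIA (-0.92) and TNFAIP3 (-0.58) were lower in C and D than in A and B and NFKB1 (0.56) was higher, beside 4.28% and 14.1% of all genes called lower and higher (log2 differences, limma). After TMM scaling NFKB1 was no longer called (0.39), and NFKB2 (-0.65) and RELA (-0.57) were called lower in addition. With cytokines RELB (1.16), NFKB2 (1.05), NFKB1 (0.78) and NFKBIA (0.59) were higher in C and D, beside 5.55% of all genes. NFKBIZ differed in controls and not detectably with cytokines (-0.15, adjusted p = 0.555), while RELB differed with cytokines and not detectably in controls (-0.07, adjusted p = 0.797).

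Several marker lists moved with the same split. The summed level of 4 markers of other islet cells (GCG, SST, PPY and GHRL), most of it somatostatin (SST), was 1786 to 2177 CPM in controls A and B and 463 to 845 CPM in C and D. With cytokines it was 1774 to 1996 CPM and 553 to 699 CPM. The summed level of the 8 beta-cell markers overlapped between the sets in control cells (6608 to 7329 and 6702 to 10985 CPM) and was higher in C and D with cytokines (8577 to 8685 and 10414 to 16280 CPM). That sum does not stand for each marker. With cytokines none of the 8 was called higher and 4 were called lower, beside 9.52% and 17.5% of all genes. The median log2 fold change of the 8 was -0.35, beside -0.17 over all genes. After TMM scaling 1 was called higher and 3 lower, beside 2154 and 1933 of all 16525 genes. Listed exocrine markers (CPA1 and KRT19, 2 of 4) summed to 88.2 to 93.3 CPM in controls A and B and 104 to 167 CPM in C and D, and to 84.6 to 89.4 and 101 to 166 CPM with cytokines. CD14 was at 1.07 to 2.03 CPM in controls A and B and 2.44 to 3.26 CPM in C and D, and at 1.23 to 1.24 and 1.57 to 1.95 CPM with cytokines. Listed fibroblast or stellate cell markers (COL1A1 and PDGFRB, 2 of 4) summed to 3.56 to 3.85 CPM in controls A and B and 4.97 to 5.30 CPM in C and D, and with cytokines to 6.34 to 6.41 and 4.29 to 6.23 CPM. The part of these differences in the NF-κB results was not tested.

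To place these genes in their pathway, the other components were taken by function from lists. The counts of each list are to be read beside the shares of all genes, 9.52% called higher and 17.5% called lower. Of 4 genes for other IκB-like or IκB-binding proteins, none was called by limma, edgeR or DESeq2. At an unadjusted limma p below 0.05, 1 was lower. These genes were BCL3 and NFKBID, which are IκB-like, and NKIRAS1 and NKIRAS2, which encode Ras-like proteins that bind IκB. Their log2 fold changes were from -0.60 to 0.16.

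Of 11 genes of the IκB kinase (IKK) complex and its neighbours, 4 were called higher and none lower, with a median of 0.06. The catalytic and scaffold subunits CHUK, IKBKB and IKBKG were not called, at -0.18, -0.01 and 0.06. The called genes were IKBKE (0.61) and TBK1 (0.57), the IKK-related kinases of interferon induction, TANK (0.61), which binds them, and MAP3K14 (0.59), the kinase NIK that starts the processing of p100. MAP3K14 was at 14.2 to 17.0 CPM in controls and 20.7 to 26.0 CPM with cytokines, without overlap.

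Of 13 listed receptor adaptors, 4 were called higher and none lower. BIRC3, the ubiquitin ligase cIAP2, had the largest change, from 0.657 to 0.974 CPM in controls to at least 4.22 CPM with cytokines (log2 2.82, SE 0.28, limma adjusted p = 3.15e-05). MYD88, the adaptor of the IL-1 receptor, had a log2 fold change of 0.87, TRAF5 of 0.85 and the kinase IRAK2 of 0.70. TRAF6 (0.46) and RIPK1 (0.42) were not called because they stayed below 0.5, although their libraries did not overlap, and both were called with TMM scaling. TRAF3, which keeps NIK low in resting cells, was at 71.6 to 79.9 CPM in controls and 54.9 to 64.1 CPM with cytokines (log2 -0.36, not called).

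Among 13 listed ubiquitin regulators, 2 were called higher, beside 9.52% of all genes, and none lower. RBCK1 (HOIL-1), a subunit of the linear ubiquitin ligase, had a log2 fold change of 0.99, and CYLD, a deubiquitinase that opposes the pathway, of 0.92. TNIP1, which binds A20, was at 102 to 122 CPM in controls and 127 to 208 CPM with cytokines (log2 0.47, not called, without overlap). FBXW11 (0.41) and BTRC (-0.32), the paralogous substrate receptors that recognize phosphorylated IκB, were not called and did not overlap between conditions, and their values had opposite signs. With TMM scaling TNIP1 and FBXW11 were called higher.

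Of 7 receptor chains for the added cytokines, 5 were listed. The paper reported very low expression of the IL-1 receptor chains IL1R1, IL1R2 and IL1RAP and of both TNF receptors. Of the 5 listed chains, TNFRSF1B, a TNF receptor, was called. It is listed at 0 in every control library and at 0.235 to 0.703 CPM with cytokines. It could pass the minimum of 0.5 CPM only through cytokine-treated samples, so a difference was bound to appear and its call supports nothing. IL1RAP (log2 0.36, called with TMM scaling) and IFNGR1 (0.25) were not called and did not overlap between conditions. Of 4 listed receptors of the non-canonical pathway, TNFRSF12A (2.23, from 9.23 to 11.5 CPM to 38.5 to 66.5 CPM) and LTBR (0.51) were called higher. TNFRSF11A (-0.61) and TNFRSF13C (-1.39) were called lower, and neither of these was called with TMM scaling (-0.46 and -1.26).

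**Figure D4:**
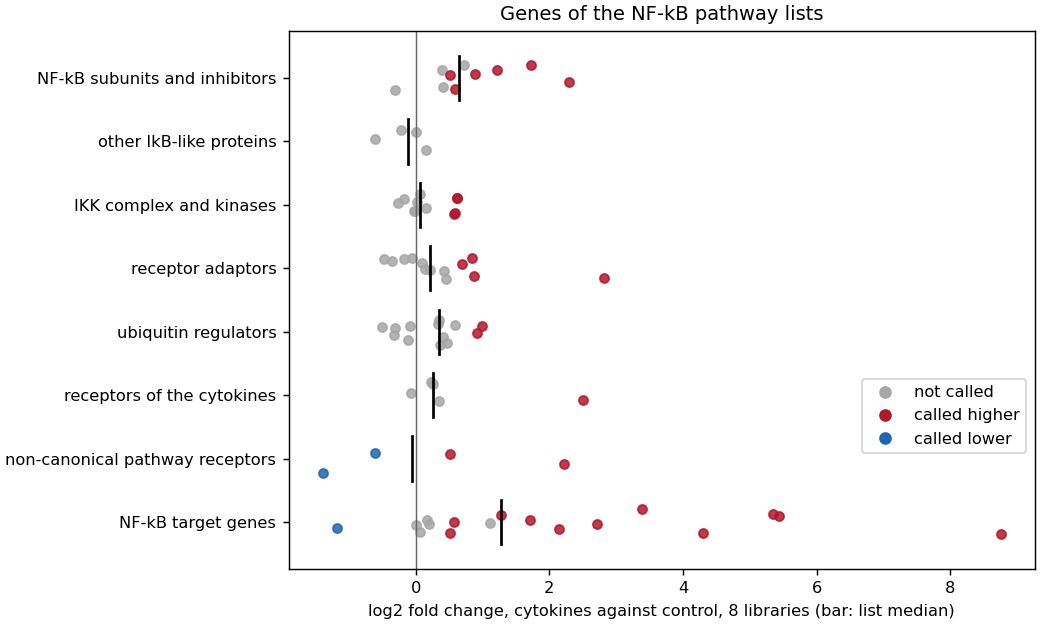
Log2 fold change of cytokine-treated over control cells (8 libraries) for the genes of each list, 1 point per gene, red for called higher, blue for called lower and grey for not called. Vertical bars are list medians, with -0.11 for the list labelled other IκB-like proteins and 0.65 for the subunits and inhibitors. The former also holds NKIRAS1 and NKIRAS2, which encode IκB-binding proteins. Among the target genes, 4 could be listed only through cytokine-treated samples.

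Of 29 textbook NF-κB target genes, 17 were listed, and 11 of these were called higher and 1 lower. ICAM1, CXCL2, CXCL8 and IL32 had no control library above 0.5 CPM, so these 4 could be listed only through cytokine-treated samples, and the count is biased upward by that. Of the other 13, 7 were called higher and 1 lower. ICAM1, an adhesion molecule, was at 0 to 0.317 CPM in controls and 79.9 to 91.1 CPM with cytokines. Its log2 fold change was 8.75, a size that depends on the added 0.1 CPM. The cytokine gene IL32 (5.44) and the chemokine genes CXCL2 (5.35) and CXCL8 (4.30) followed. These also had few reads in control cells, so the size of their fold changes depends on the added 0.1 CPM as well. CD83 was called lower, from 8.89 to 13.0 CPM to 2.80 to 6.77 CPM (-1.17).

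The split between the sets also appeared in the targets. No target was called for a difference without the block by limma or edgeR. At an unadjusted limma p below 0.05 there were 9, beside 488 of all 16525 genes. With the block 7 of the 17 were called, beside 0.411% of all genes. These were ICAM1, CXCL1, CXCL2, CXCL8, TNF, LTB and IER3, each with a larger response in C and D. Of these, ICAM1, CXCL2 and CXCL8 could be listed only through cytokine-treated samples. The size of their differences depends on the added 0.1 CPM, so their calls add nothing to the split. TNF was at 3.72, 2.33, 0.995 and 1.54 CPM in control libraries A to D and at 2.75, 2.67, 6.02 and 7.64 CPM with cytokines. Its log2 response was -0.12 in A and B and 2.36 in C and D, an arrangement like that of NFKBIA and TNFAIP3. IL32, CSF1 and GADD45B had differences of 0.03, -0.06 and 0.08, so the targets were not uniform. TNF, LTB, IER3, CXCL1, CSF1 and GADD45B were named after their values were seen.

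**Figure D5:**
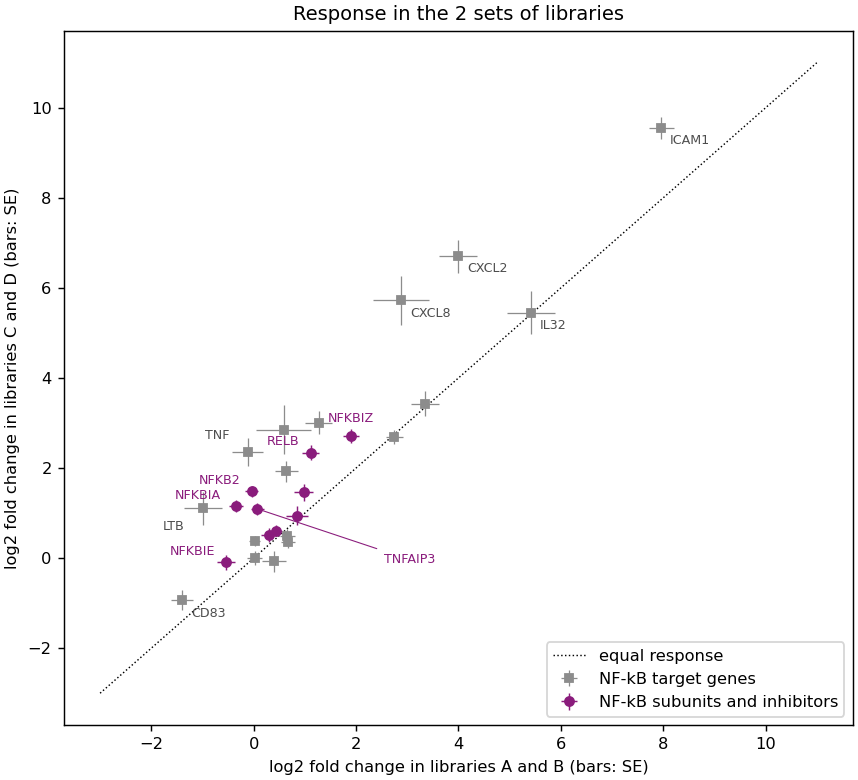
Log2 fold change in libraries C and D against that in A and B for the 10 subunits and inhibitors (purple) and the 17 listed NF-κB target genes (grey), with standard errors of the limma fit. The dotted line marks equal responses. All 10 subunits and inhibitors and 12 of the 17 targets lie above it. The share of all genes is 31.6% on the CPM scale and 48.2% after TMM scaling. Of the targets, ICAM1, CXCL2, CXCL8 and IL32 could be listed only through cytokine-treated samples.

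The genes whose pattern over the 8 libraries was most like that of each called member were listed by Pearson's r of log2(CPM + 0.1) among 14673 genes of at least 1 CPM. The libraries share the contrast between conditions, so high values are frequent. For RELB these were RRAGC, AGO2 and PDE3A (r = 0.98 each). For NFKBIZ they were MGAM2, GBP1 and MOK (r = 0.99 each). NFKBIB was closest to IRS2, KDM5C and C2CD4B (r = 0.99 each) and REL to TMEM219 (r = 0.997), ZUP1 and RHOU (r = 0.98 each). RELA was closest to ZFP36 (r = 0.996), DAZAP2 and TOX3 (r = 0.99 each), and TNFAIP3 to TNF (r = 0.96), SMAD3 (r = 0.95) and TET3 (r = 0.93).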

How the data were processed

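The authors cleaned reads with SOAPnuke, aligned them to GRCh38 with TopHat 2.1.1, counted them on genes with htseq-count 0.9.1, removed genes that did not exceed 0.5 CPM in 4 or more samples, and deposited the table as CPM. A further 4 value columns were not used. All values used (100%, within 0.001 reads) were whole reads, and intervals from reads cover counting error only.

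limma 3.58.1 (R 4.3.3, intensity trend, log2(CPM + 0.1), Benjamini-Hochberg over 16525 genes, no block) gave the main results. edgeR 4.0.16 and DESeq2 1.42.0 ran on recovered reads as alternatives, and the study itself used edgeR in a version not given in the sources used here. TPM used GENCODE 29 lengths. Exact permutation tests were 2-sided.

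The main fit and the main interaction test held no term for the pairs A to D, which entered only as the replicate block among the alternatives. Deviations from group means correlated by 0.57, 0.59, 0.80 and 0.74 within the pairs, although A and B were not told apart (0.57 and 0.59 crosswise). No 2 libraries of a condition were copies, but A and B were by far the most alike. Their chi-square per gene was 13.3 in controls and 5.89 with cytokines, and the next lowest was 66.6, between controls C and D.

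Members and lists were chosen with earlier results of these data known. Named from each list were the called genes, at most 4 per direction, and those not called without overlap. Within-set contrasts within a condition and the alternatives to the interaction were chosen after seeing the data. Versions were Python 3.11.15, pandas 2.3.3, numpy 2.4.6, scipy 1.17.1 and matplotlib 3.10.9.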

Additional observations from a re-analysis of the deposited data

Results flagged for a closer look

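3 values were set aside by fixed criteria. Cytokine library C had 63.2 CPM of NFKBIB, and its gap to the next cytokine library was larger, relative to the range of the 4, than Dixon's 95% limit allows. About 1 in 20 groups passes that limit by chance, and 20 groups of 4 were examined. The responses of NFKB2 and NFKBIA differed between C and D and A and B by 1.52 and 1.51 on the log2 scale, by the interaction test over all genes.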

How the results depend on the processing

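Of 210 recomputed log2 fold changes of the 10 genes under 21 alternatives, 187 kept their direction and their side of the thresholds, none changed direction, 11 lost the call and 12 gained it. NFKBIZ, RELB, NFKBIB and REL were called under all 21. NFKB2 was called with TMM (0.87) and median-of-ratios scaling (0.88), by edgeR with TMM (0.93) and without it (0.80), by DESeq2 (0.94), with the replicate block in limma (0.72) and edgeR (0.88) and with a term for the column-name ending (0.72). NFKB1 was called by DESeq2 (0.60) and in edgeR with the replicate block (0.57). TNFAIP3 was lost with quantile normalization (0.64) and without the trend (0.58). In limma the block changed no other member's call. The causes were not tested.

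Leaving out 1 library gave 0.51 to 0.91 for NFKB2, 0.44 to 0.59 for RELA and 0.47 to 0.69 for TNFAIP3, and 4 to 6 genes called higher. For the difference between sets it gave 1.41 to 1.64 for NFKB2, 1.37 to 1.65 for NFKBIA and -0.11 to 0.31 for REL, which was reversed at -0.04 and -0.11. Between 0 and 2 of the 10 and between 3 and 11 of all genes were then called. In these fits a set has 1 library left in a condition, which is assumed to vary like the others. With the replicate block 5 of the 10 and 68 of all genes were called, among them RELB (1.23), TNFAIP3 (1.02) and NFKBIZ (0.82).

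With the longest transcript as length, control TPM was 32.2 for NFKB2, 59.6 for RELA, 57.4 for NFKBIA, 25.8 for NFKBIB and 15.1 for TNFAIP3, and cytokine TPM was 90.2 for RELA and 45.2 for NFKBIZ. Depth did not limit the 10 genes, but the low controls of ICAM1, CXCL2 and CXCL8 rest on few reads.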
